A study of Mus musculus with 18 samples.

Results

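The genes described here are the AP-1, Egr1 and Klf immediate-early factors Fos, Fosb, Fosl1, Fosl2, Jun, Junb, Jund, Egr1, Klf4 and Klf6, chosen by name, so 10 of the 55450 genes in the table. The choice was made with earlier results of these data known. All 10 passed the filter on low counts that left 21161 genes for testing, and their read counts ran from 542 to 24556 per library. Immediate-early genes are switched on within minutes of a growth factor, cytokine or stress signal, without new protein synthesis, and most of their mRNAs are short-lived. Fos and Jun proteins pair through leucine zippers into AP-1, a transcription factor that binds promoters and enhancers of genes for matrix proteases, cytokines and cell division. In fibroblasts AP-1 acts together with Smad proteins in the response to TGF-β, the main cytokine of fibrosis.

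Fibroblasts were mouse embryonic fibroblasts (MEF) from a commercial collection, sequenced as 18 poly(A) RNA libraries in 6 groups of 3. Every cell culture had been transfected with a plasmid. Those given the empty pcDNA3 vector were the control, and the others carried human miR-29b-1 either under a rat Col1a1 promoter (Col1a1-miR-29b) or under the CMV promoter (CMV-miR-29b). At 6 h after transfection each vector's cells received TGF-β for 24 h or no TGF-β. Both miR-29b plasmids also carried EGFP and mRFP1, which the empty vector lacked. Equal moles of plasmid were used, so that the larger Col1a1-miR-29b plasmid meant more DNA by mass. The effects of promoter, insert, reporter and DNA mass therefore cannot be told apart between vectors. Whether the 3 libraries of a group came from separate cultures was described only as repeated experiments, and p-values measure the spread between these libraries. In each Col1a1-miR-29b group 1 library of the table carries a replicate letter that no sample label has. It was used as a member of its group and is called unlettered here.

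Total counts ran from 65898017 to 80332633 per library. TGF-β raised its known target Acta2, smooth muscle actin, by 2.88 to 4.27-fold with every vector. Counts on the mouse Mir29b-1 precursor were 0 in all 6 empty vector libraries, 0 to 1 with Col1a1-miR-29b, 2 to 6 with Col1a1-miR-29b and TGF-β, 110 to 309 with CMV-miR-29b and 203 to 293 with CMV-miR-29b and TGF-β. Poly(A) libraries do not count mature miR-29b. Of 11 fibroblast markers 9 were above 1 CPM (counts scaled to library size), while Lum was at 0 in every library and Thy1 reached 0.114 CPM at most. Summed markers of other cell types were higher in TGF-β libraries than in untreated ones for muscle (72.3 to 93.1 against 22 to 28 CPM), neural (51.1 to 60.8 against 30.6 to 40.4 CPM), epithelial (1.66 to 3.07 against 0.265 to 1.43 CPM) and endothelial lists (2.09 to 3 against 0.937 to 1.87 CPM). Leukocyte markers summed to 8.54 to 13.6 CPM, most of it Cd68 (8.15 to 13.3 CPM). Most of the neural sum was Tubb3 (29.8 to 59 CPM over all libraries). In the muscle list the rise lay in Tnnt2 (5.78 to 77.1 CPM over all libraries). Des was at 13.5 to 21.4 CPM, and Myod1, Myog and Actc1 were at 0.186 CPM or less. The part of these genes in the results was not tested.

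The Fos family supplies the partners that cannot pair with themselves. Fos (ENSMUSG00000021250, chr12:85473890-85477273, plus strand) and Fosb (ENSMUSG00000003545, chr7:19302696-19310051, minus strand) carry strong activation domains. Fosl1 (ENSMUSG00000024912, chr19:5447547-5455946, plus strand) and Fosl2 (ENSMUSG00000029135, chr5:32135801-32157842, plus strand), known as Fra-1 and Fra-2, lack them. The Jun family pairs with Fos proteins or with itself. Jun (ENSMUSG00000052684, chr4:95049034-95052222, minus strand) is its strongest activator and is known to drive its own gene. Junb (ENSMUSG00000052837, chr8:84974484-84978718, minus strand) is a weaker activator and a direct TGF-β target. Jund (ENSMUSG00000071076, chr8:70698949-70700616, plus strand) is abundant in resting cells. Egr1 (ENSMUSG00000038418, chromosome 18), Klf4 (ENSMUSG00000003032, chr4:55527143-55532466, minus strand) and Klf6 (ENSMUSG00000000078, chr13:5861482-5870394, plus strand) are zinc finger factors that bind GC-rich sites. Positions are those of the deposited table and match mouse build GRCm38.

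A few members share ground with a gene on the opposite strand. Junb overlaps Prdx2, a peroxiredoxin gene with 12256 to 15181 counts, and Fosl1 overlaps Ccdc85b with 1056 to 4344 counts. Jun overlaps Junos with 16 to 97 counts, and Jund overlaps Gm11175 with 0 to 22 counts. The library kit kept strand, but whether the counting used it is not given in the sources used here, so the counts of Junb and Fosl1 could hold some reads of their neighbours.

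Since the vectors express miR-29b, the sequence by which this miRNA finds its targets and the sites for it in the members are shown first. MicroRNAs pair with the 3′ untranslated region (UTR) of an mRNA mainly through their seed, bases 2 to 8, in capitals here in the mature miR-29b-3p sequence from RefSeq (GRCm38.p6, chr6:31063025-31063047, minus strand).
miR-29b-3p: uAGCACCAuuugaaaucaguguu
The matching 7 bases (TGGTGCT) or the shorter match with a following A were looked for in the longest annotated 3′ UTR of each gene (GENCODE, GRCm38). Such a match was found in 3 of the 10 members, and in 19.7% of the 14442 tested genes with an annotated 3′ UTR. Each of Fos, Fosl1 and Klf4 had 1 match, in capitals, and that of Fosl1 runs over 8 bases.
Fos, chr12:85476833-85476862, plus strand: tggaattaaccTGGTGCTggattgtatcta
Fosl1, chr19:5455320-5455349, plus strand: acatcccttgcTGGTGCTActccaagccat
Klf4, chr4:55527550-55527579, minus strand: agcctaaatgaTGGTGCTtggtgagtcgtg
Fosb, Fosl2, Jun, Junb, Jund, Egr1 and Klf6 had no match in UTRs of 485 to 4653 bases. A match is a description of letters, not a measured binding site.

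Promoter windows, 250 bases before to 50 bases after the start, were taken from RefSeq (GRCm38.p6) for 8 of the members. Fosl1 was not covered. The window of Egr1 was left out of the search, so its motifs are not reported here. None of the 8 held the AP-1 motif TGACTCA, which 5.2% of all 32851 promoters hold on either strand, the cAMP response motif TGACGTCA (1.79%), a serum response (CArG) box (1.63%) or the Smad motif GTCTAGAC (0.213%). The GC box GGGCGG was in 6 of the 8 and in 35.7% of all promoters. A variant AP-1 motif, TGACATCA, was in the promoters of Jun and Klf6 and in 3.62% of all, and the related TGACGCA was in that of Fosb and in 2.12% of all. These 3 windows are printed because each holds such a variant and its gene passed a test below, with the motif in capitals, which begins 45 bases before the start in Jun, 119 in Klf6 and 60 in Fosb.
Jun, chr4:95052249-95052278, minus strand: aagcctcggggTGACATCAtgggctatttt
Klf6, chr13:5861359-5861388, plus strand: ttggtgcgagcTGACATCAtcgtcgcgcag
Fosb, chr7:19310087-19310116, minus strand: ggagttgcgggTGACGCAagcgcgggggcg
Motifs outside these windows were not looked for.

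Levels of different genes were compared as the authors' FPKM, which is per transcript length, over 16 libraries. Jund led with 102 ± 5.65 FPKM (SD, n = 16), followed by Junb with 92.3 ± 20.7 and Jun with 66.7 ± 9.19. Next came 5 genes within a narrow range, Klf6 (25.2 ± 4.4), Fosl1 (22.2 ± 2.33), Klf4 (21.1 ± 2.31), Egr1 (20.5 ± 2.23) and Fos (19.4 ± 3.78). Fosl2 followed at 11.3 ± 0.985 FPKM, and Fosb was last at 1.66 ± 0.577 FPKM. Jund exceeded Junb in 9 of 16 libraries, so the order of these neighbours depended on the library. Among Klf6, Fosl1, Klf4, Egr1 and Fos each gene exceeded the next in 11 or 12 of 16 libraries. Jun exceeded Klf6, Fos exceeded Fosl2 and Fosl2 exceeded Fosb without any overlap of their ranges. Against all tested genes, Jund stood at the 98.2 percentile of mean FPKM and Fosb at the 45.7 percentile.

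Per length, Junb made up a larger part of the Jun family in the group means with TGF-β. Jund made up 44.8% of the summed Jun family FPKM in untreated empty vector cells and 39% with TGF-β, while Junb went from 30.1% to 36.3%. In Col1a1-miR-29b cells Junb went from 35.9% to 39.5%, and in CMV-miR-29b cells from 30% to 39.7%. Jun kept 23.8% to 27.5% in the 6 group means. In the Fos family Fosl1 held 37.7% to 42.1% and Fos 31.6% to 42.2%, whereas Fosb never exceeded 4.46% of a group mean. These shares are descriptions with no test.

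**Figure D1:**
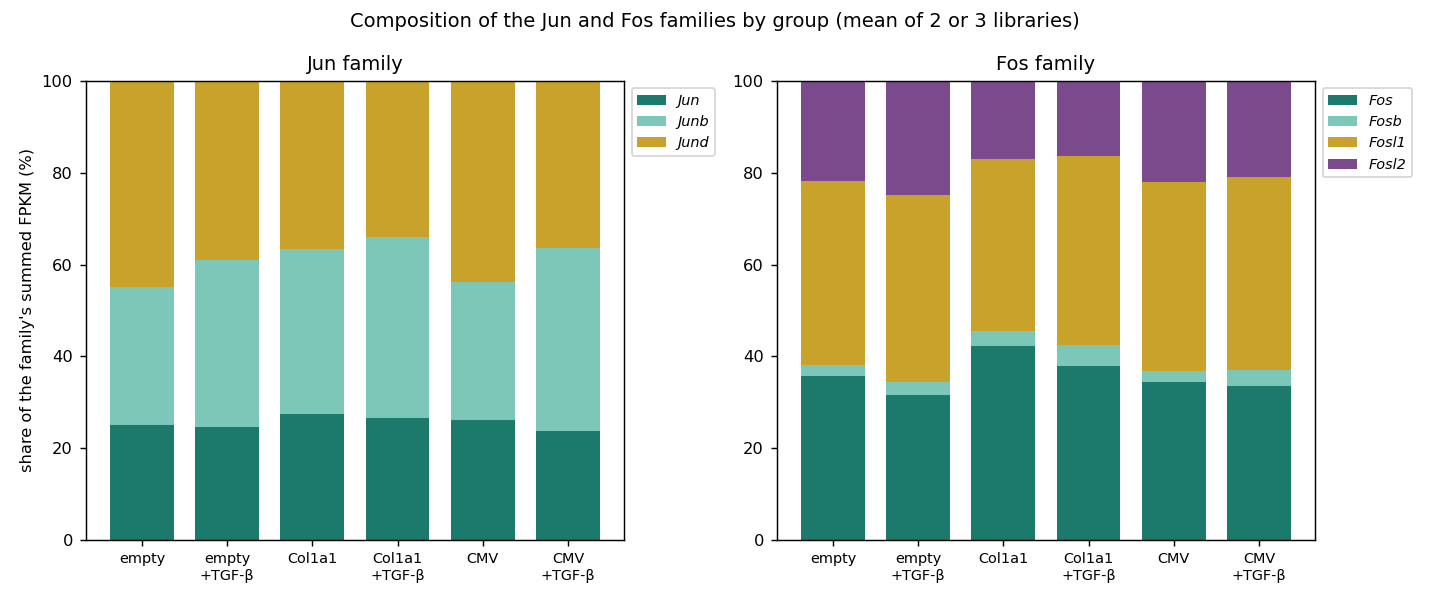
Stacked bars show the share (%) of each gene in the summed FPKM of the Jun family (left) and the Fos family (right) for the 6 groups, as means of 2 or 3 libraries. The Jund share is largest in untreated empty vector cells (44.8%) and smallest in Col1a1-miR-29b cells with TGF-β (33.9%).

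TGF-β changed a few of the 10 genes, and every change that passed the test was a rise. Junb and Klf6 rose with all 3 vectors, Klf4 with the empty and Col1a1-miR-29b vectors, and Fosb with both miR-29b vectors. The rises were 1.23 to 1.6-fold. In a bulk culture, more cells expressing a gene and more RNA per cell cannot be told apart. Values below are CPM after TMM scaling, fold changes come from edgeR's quasi-likelihood test over all 18 libraries, and adjusted p-values are Benjamini-Hochberg values over all 21161 genes.

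Junb was 189, 179 and 191 CPM in the 3 untreated empty vector libraries and 240, 255 and 239 CPM with TGF-β. With Col1a1-miR-29b it went from 238, 277 and 232 to 332, 306 and 330 CPM. With CMV-miR-29b it went from 161, 187 and 176 to 304, 266 and 265 CPM. In each vector every treated library was above every untreated one. On the log2 scale Junb rose by 0.39 with the empty vector (adjusted p = 0.00298), by 0.37 with Col1a1-miR-29b (adjusted p = 0.00606) and by 0.67 with CMV-miR-29b (adjusted p = 2.18e-05), each with a standard error of 0.07. The Col1a1-miR-29b rise was lost without the 2 unlettered libraries (log2 fold change 0.30, adjusted p = 0.124). Prdx2, on the other strand, had log2 fold changes of 0.09, 0.11 and 0.16, of which the last passed the test (adjusted p = 0.0384).

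Klf6 is a zinc finger factor known from activated stellate cells of the liver. Klf6 was 109, 110 and 106 CPM in untreated and 162, 141 and 174 CPM in treated empty vector cells, with no overlap (log2 fold change 0.55, standard error 0.08, adjusted p = 0.000263). Col1a1-miR-29b cells had 103, 95.1 and 107 CPM without and 122, 139 and 136 CPM with TGF-β (0.38, standard error 0.08, adjusted p = 0.00764). CMV-miR-29b cells had 110, 95 and 110 CPM without and 138, 139 and 132 CPM with it (0.38, standard error 0.08, adjusted p = 0.0071). The groups did not overlap with any vector. The Col1a1-miR-29b value missed the threshold without the unlettered libraries (0.39, adjusted p = 0.054).

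Klf4, a factor of epithelial barrier and stem cells that also acts in fibroblasts, was 69, 69.6 and 60.7 CPM in untreated empty vector cells and 88.5, 79.9 and 83.2 CPM with TGF-β (log2 fold change 0.34, standard error 0.06, adjusted p = 0.00212). With Col1a1-miR-29b it went from 67, 62.6 and 70.9 to 80, 83.8 and 82.3 CPM (0.30, standard error 0.06, adjusted p = 0.00764). CMV-miR-29b cells had 64.5, 61.6 and 65.9 CPM without and 71.7, 73.6 and 73 CPM with TGF-β. There too the groups did not overlap, but the difference of 0.19 did not pass the test (adjusted p = 0.101). In a fit of the 2 empty vector groups alone, the empty vector difference was 0.33 (adjusted p = 0.0639).

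Fosb was the member with the lowest counts. In empty vector cells it was 7.39, 9.37 and 9.13 CPM without and 8.24, 12.5 and 9.34 CPM with TGF-β, which overlapped (log2 fold change 0.22, standard error 0.15, adjusted p = 0.558). Col1a1-miR-29b cells had 12.9, 12.9 and 12.8 CPM without and 20.5, 19.1 and 21.6 CPM with TGF-β (0.66, standard error 0.15, adjusted p = 0.0211). CMV-miR-29b cells had 6.9, 9.34 and 8.6 CPM without and 15.5, 12.1 and 12 CPM with it (0.67, standard error 0.16, adjusted p = 0.0171). With both miR-29b vectors all treated libraries exceeded all untreated ones. The Col1a1-miR-29b call was lost on leaving out any of the 6 libraries but treated replicate d, with adjusted p of up to 0.0874. The CMV-miR-29b call was lost without untreated replicate c (adjusted p = 0.0948) or treated replicate c (adjusted p = 0.0946).

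With the empty vector 3 of the 10 members thus rose and 0 fell, against 3.88% of all tested genes that rose and 2.01% that fell. Their median log2 fold change was 0.18 beside 0.00 over all genes. With Col1a1-miR-29b 4 rose and 0 fell (3% and 1.32% of all genes, medians 0.29 and -0.01). With CMV-miR-29b 3 rose and 0 fell (3.08% and 1.87%, medians 0.19 and 0.00). The untreated libraries of a vector serve only that vector's comparison, so these are 3 separate sets of 6 libraries, although they share 1 estimate of the spread. The 1245, 914 and 1047 genes called in all went to between 725 (without treated empty vector replicate e) and 1428, 630 and 679, and 724 and 876 on leaving out 1 library.

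The other 6 members passed the test with no vector. Every treated library was taken at 24 h of TGF-β, so any earlier change of these genes was not measured. Fos had log2 fold changes of -0.17, 0.08 and 0.14 in the order of vectors used above (adjusted p = 0.598, 0.892 and 0.723). Jun had 0.09, 0.13 and 0.12, and Jund -0.08, 0.07 and 0.01. Fosl1 had 0.03, 0.29 and 0.19, where the value of 0.29 in Col1a1-miR-29b cells had an adjusted p of 0.0653 and passed with DESeq2 (adjusted p = 0.0214). Egr1, a classical first responder to growth factors, was 114, 97.1 and 109 CPM in untreated and 122, 113 and 123 CPM in treated empty vector cells. Its log2 fold changes were 0.17, 0.29 and 0.20 (adjusted p = 0.349, 0.0782 and 0.254), and DESeq2 gave 0.28 with an adjusted p of 0.0299 in Col1a1-miR-29b cells. Fosl2 had 0.19, 0.08 and 0.10 (adjusted p = 0.0611, 0.642 and 0.473). The treated empty vector replicate d was the lowest of its group for Fosl2 (127 against 148 and 148 CPM), and without it the Fosl2 rise was 0.25 (adjusted p = 0.00604).

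**Figure D2:**
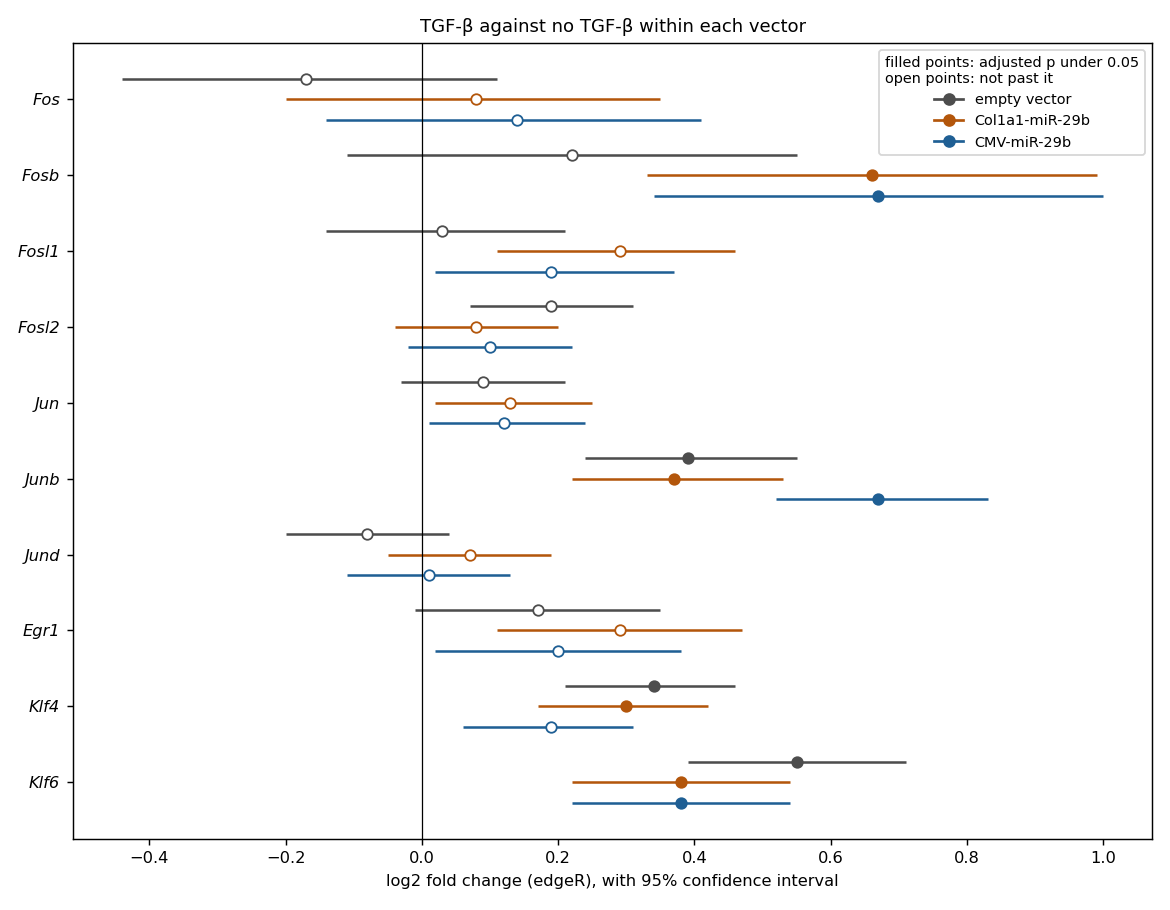
Points give the log2 fold change of TGF-β against no TGF-β for each of the 10 genes and each of the 3 vectors, lines the 95% confidence interval, and filled points an adjusted p under 0.05. Junb and Klf6 are filled with all 3 vectors, and the values farthest to the right are those of Fosb and Junb with CMV-miR-29b (0.67 each).

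Whether the vectors changed the TGF-β response itself was tested as the difference of the responses. In edgeR 0 members and 0% of all genes passed for Col1a1-miR-29b minus empty vector, with 961 genes at an unadjusted p under 0.05, among them 1 member, Fosl1. For CMV-miR-29b minus empty vector it was again 0 members and 0% of all genes, with 1129 genes at an unadjusted p under 0.05, among them 1 member, Junb. DESeq2 also called 0 members in each. The response of Junb differed by 0.28 between CMV-miR-29b and empty vector cells (95% confidence interval 0.06 to 0.50, adjusted p = 0.922). That of Fosb differed by 0.44 with Col1a1-miR-29b (-0.02 to 0.91) and by 0.46 with CMV-miR-29b (-0.01 to 0.92). These intervals are wide, and the rises of Fosb with both miR-29b vectors were not shown to differ from the empty vector value.

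Col1a1-miR-29b cells differed from empty vector cells in several AP-1 genes. Without TGF-β, Jun, Junb and Fosb were higher and Fosl2 was lower. With TGF-β, Fos and Fosl1 were higher as well, and Fosl2 and Klf6 lower. The highest was Fosb, 2.03-fold its level in empty vector cells under TGF-β. The 2 states use separate libraries.

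Jun was 220, 205 and 223 CPM with the empty vector and 259, 287 and 291 CPM with Col1a1-miR-29b in untreated cells. With TGF-β it was 226, 234 and 230 against 305, 290 and 324 CPM. Every Col1a1-miR-29b library was above every empty vector library in both states. On the log2 scale Jun was higher by 0.37 without TGF-β (adjusted p = 0.0025) and by 0.41 with it (adjusted p = 0.000568), each with a standard error of 0.05. Jun passed the test in every other setting run, leaving out each library in turn included, with log2 fold changes from 0.3 to 0.41 without and from 0.32 to 0.45 with TGF-β.

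Junb, given per library above, was 186 ± 6.47 CPM with the empty vector and 249 ± 24.5 CPM with Col1a1-miR-29b in untreated cells (SD, n = 3). Under TGF-β it was 245 ± 9.08 and 323 ± 14.7 CPM. Junb was thus higher by 0.42 (adjusted p = 0.00544) and by 0.40 (adjusted p = 0.00268) on the log2 scale, each with a standard error of 0.07. Neither pair of groups overlapped. Prdx2 on the opposite strand was higher by 0.15 (adjusted p = 0.0416) and 0.17 (adjusted p = 0.0129) in the same comparisons, and its part in the Junb values was not tested.

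Fosb, per library as above, was 8.63 ± 1.08 against 12.9 ± 0.0541 CPM without TGF-β and 10 ± 2.22 against 20.4 ± 1.25 CPM with it (SD, n = 3). The groups did not overlap in either state. Fosb was higher by 0.58 without TGF-β (adjusted p = 0.038, standard error 0.15) and by 1.02 with it (adjusted p = 0.00103, standard error 0.16), both as log2 differences. The value under TGF-β passed in every other setting run. The untreated one was lost on leaving out any 1 of the 6 libraries, with adjusted p from 0.0672 to 0.16.

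Fos was 48, 48.5 and 50.8 CPM with the empty vector and 61.3, 67.5 and 58.7 CPM with Col1a1-miR-29b in untreated cells. The groups did not overlap, but the log2 difference of 0.35 did not pass the test (adjusted p = 0.123). Under TGF-β it was 40.3, 52.2 and 38.4 against 67.7, 59.1 and 71.1 CPM, higher by 0.60 on the log2 scale (adjusted p = 0.00729, standard error 0.13). In a fit of the groups compared alone the untreated difference passed (0.34, adjusted p = 0.0416) and the one under TGF-β did not (0.59, adjusted p = 0.051). Fosl1 was 50.9, 44.1 and 47.8 against 46.9, 52.5 and 48.2 CPM without TGF-β, which overlapped (0.05, adjusted p = 0.82). Under TGF-β it was 49.8, 45.7 and 50.5 against 59, 60.1 and 60.9 CPM (0.30, standard error 0.08, adjusted p = 0.024). That Fosl1 call was lost on leaving out any 1 of the 6 libraries (adjusted p from 0.0536 to 0.0834) and with length and GC offsets in the fit (0.22, adjusted p = 0.138).

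Fosl2 went the other way from its relatives. It was 129, 120 and 121 CPM with the empty vector and 107, 105 and 107 CPM with Col1a1-miR-29b in untreated cells. Under TGF-β it was 148, 127 and 148 against 110, 115 and 112 CPM. All Col1a1-miR-29b libraries were below all empty vector libraries, with differences of -0.21 (adjusted p = 0.04) and -0.32 (adjusted p = 0.00223) on the log2 scale, each with a standard error of 0.06. The untreated call was lost on leaving out any 1 of the 6 libraries, with adjusted p from 0.055 to 0.124, and with length and GC offsets (-0.14, adjusted p = 0.14). Klf6 was lower by the values given above under TGF-β, 132 ± 9.2 against 159 ± 16.7 CPM (SD, n = 3; log2 fold change -0.26, standard error 0.08, adjusted p = 0.0358). This was lost without treated empty vector replicate c (adjusted p = 0.0938) or e (0.198), without treated Col1a1-miR-29b replicate c (0.159) or the unlettered one (0.0597), with length and GC offsets (-0.19, adjusted p = 0.0866) and with scaling by total counts (-0.22, adjusted p = 0.0506).

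Jund, Egr1 and Klf4 did not pass in either state. Jund differed by -0.06 without and 0.09 with TGF-β, and Klf4 by 0.01 and -0.03, with 95% confidence intervals of -0.12 to 0.14 and -0.16 to 0.09 for Klf4. Egr1 differed by -0.20 (-0.38 to -0.02, adjusted p = 0.171) and -0.08 (-0.26 to 0.10, adjusted p = 0.605). In untreated cells 3 members were higher and 1 was lower, where 2.57% of all genes were higher and 3.7% lower. Under TGF-β 5 were higher and 2 lower, where 5.31% and 7.63% of all genes were. In a fit of only the genes with at least 10 counts in every library, 1716 of 15805 were called without and 3094 with TGF-β. The members' median log2 fold changes were 0.03 and 0.20, beside 0.02 over all genes in both states. The counts over all genes, 1327 without and 2738 with TGF-β, went to between 468 (without empty vector replicate c) and 1043, and to between 1291 (without treated empty vector replicate e) and 3182, on leaving out 1 library.

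**Figure D3:**
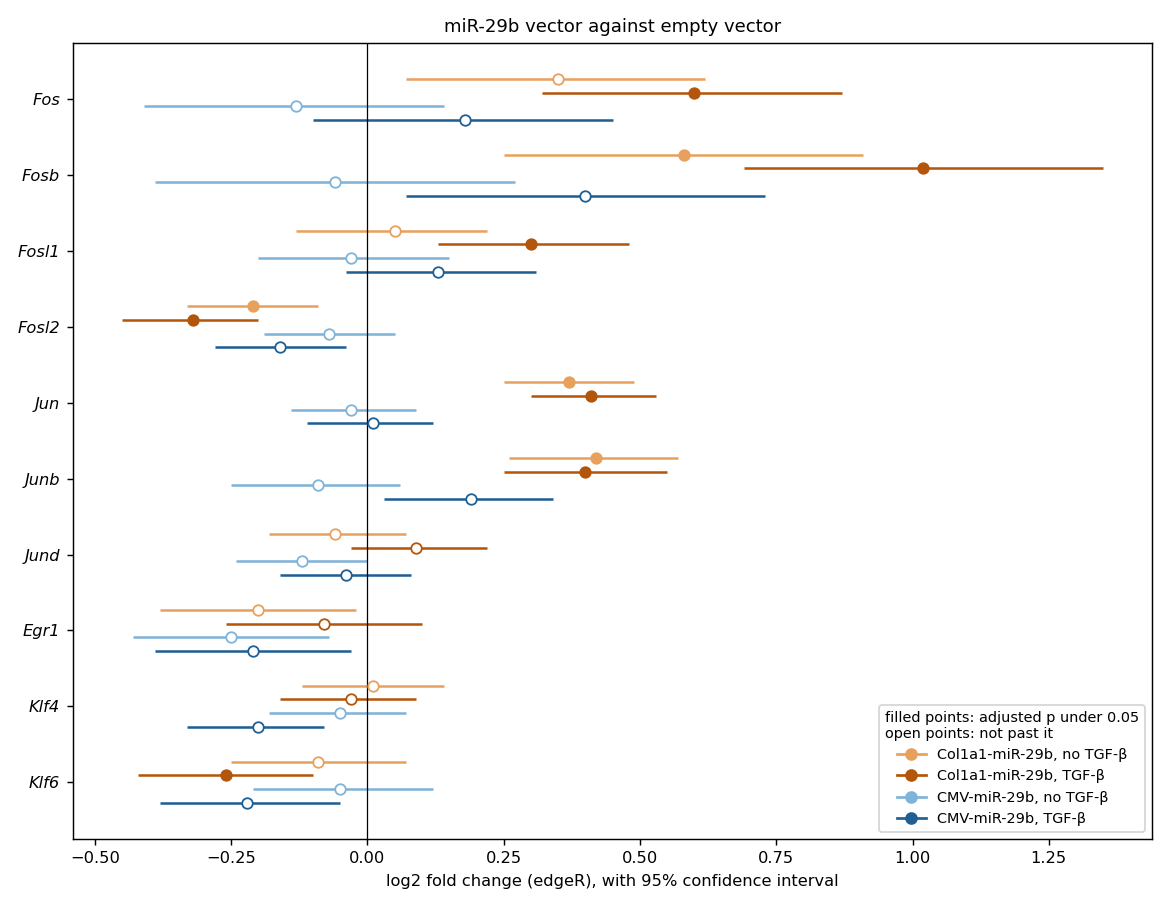
Points give the log2 fold change of each miR-29b vector against the empty vector for the 10 genes without and with TGF-β, lines the 95% confidence interval, and filled points an adjusted p under 0.05. Filled points occur only for Col1a1-miR-29b, with Fosb under TGF-β farthest to the right (1.02) and Fosl2 under TGF-β farthest to the left (-0.32).

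Interferon response genes stood apart in the same libraries. The 17 listed genes summed to 3917 to 4103 CPM with Col1a1-miR-29b against 2757 to 3000 CPM with the empty vector and 2890 to 3325 CPM with CMV-miR-29b in untreated cells. Under TGF-β the sums were 3329 to 3717, 2420 to 2582 and 2543 to 2668 CPM. Of the 17 genes 9 were higher and 0 lower with Col1a1-miR-29b in each state, where 2.57% of all genes were higher without TGF-β and 5.31% with it. They were led by Mx1, an antiviral GTPase, with a log2 fold change of 1.01 in untreated cells (adjusted p = 0.00751). With TGF-β 2, 1 and 9 of the 17 fell in the cells of the empty, Col1a1-miR-29b and CMV-miR-29b plasmids. Over all genes 2.01%, 1.32% and 1.87% fell. The part of this response in the AP-1 and TGF-β values was not tested. The interferon list was chosen with earlier results of these data known, so its counts beside all genes are descriptions.

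CMV-miR-29b cells carried the most Mir29b-1 counts, and none of the 10 genes passed the test against the empty vector in them. In edgeR 0 members passed without TGF-β, where 0.00473% of all genes (1 of 21161) did, and 0 with TGF-β, where 0.00945% (2 of 21161) did. At an unadjusted p under 0.05 there were 2 members and 1156 genes without TGF-β, and 6 members and 2531 genes with it. DESeq2 likewise called 0 members in both states, with 37 and 284 genes called in all. Without treated empty vector replicate d, edgeR called 160 genes under TGF-β, 1 member among them, Fosl2. The 95% confidence interval of the Jun difference was -0.14 to 0.09 without and -0.11 to 0.12 with TGF-β, and that of Junb was -0.25 to 0.06 and 0.03 to 0.34. For Fosb the intervals were -0.39 to 0.27 and 0.07 to 0.73. The intervals of Jun do not reach the values of 0.37 and 0.41 seen with Col1a1-miR-29b. Under TGF-β those of Fosb and Junb lay above 0. Below 0 lay those of Fosl2 (-0.28 to -0.04), Egr1 (-0.39 to -0.03), Klf4 (-0.33 to -0.08) and Klf6 (-0.38 to -0.05). Fosl2 was lower by -0.16 in the fit of all libraries (adjusted p = 0.284) and by -0.24 without treated empty vector replicate d (adjusted p = 0.0444).

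The 2 miR-29b vectors were also compared directly, in the same fit of 18 libraries, so that the empty vector libraries entered only the estimate of the spread. In both states the Col1a1-miR-29b libraries are those already compared with the empty vector, so these results are not independent of those above. In untreated cells Jun, Junb and Fosb were lower in CMV-miR-29b cells than in Col1a1-miR-29b cells, so 3 of 10 members, where 0.803% of all genes were lower. The count over all genes rested on single libraries, and went from 382 called genes to between 61 (without CMV-miR-29b replicate c) and 428 (without its replicate d) on leaving out 1 of the 6 libraries. Jun was 200, 224 and 210 CPM against 259, 287 and 291 CPM, with no overlap (log2 fold change -0.40, standard error 0.05, adjusted p = 0.00354). Junb differed by -0.51 (standard error 0.07, adjusted p = 0.00435) and Fosb by -0.64 (standard error 0.15, adjusted p = 0.0498). The Fosb value was at the threshold and was lost on leaving out any of the 6 libraries but CMV-miR-29b replicate d, with adjusted p of up to 0.22. A fit of these 2 groups alone called 0 members, with adjusted p of 0.1 for Jun, 0.104 for Junb and 0.14 for Fosb.

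Under TGF-β only Jun passed, 235, 230 and 227 CPM against 305, 290 and 324 CPM (log2 fold change -0.41, standard error 0.05, adjusted p = 0.00362), 1 of 10 members where 0.912% of all genes were lower. Here the 408 genes called went to between 40 and 137 on leaving out any 1 library, the fewest without treated CMV-miR-29b replicate d. Fosb differed by -0.63 (adjusted p = 0.0515) and Fos by -0.42 (adjusted p = 0.11), and both groups of libraries were without overlap. With DESeq2 Fosb (-0.62, adjusted p = 0.00462) and Fos (-0.41, adjusted p = 0.0356) passed too. Fos was likewise lower with DESeq2 in untreated cells (-0.47, adjusted p = 0.0119), and in edgeR without CMV-miR-29b replicate d (-0.61, adjusted p = 0.0347). No member was higher with CMV-miR-29b in either state.

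**Figure D4:**
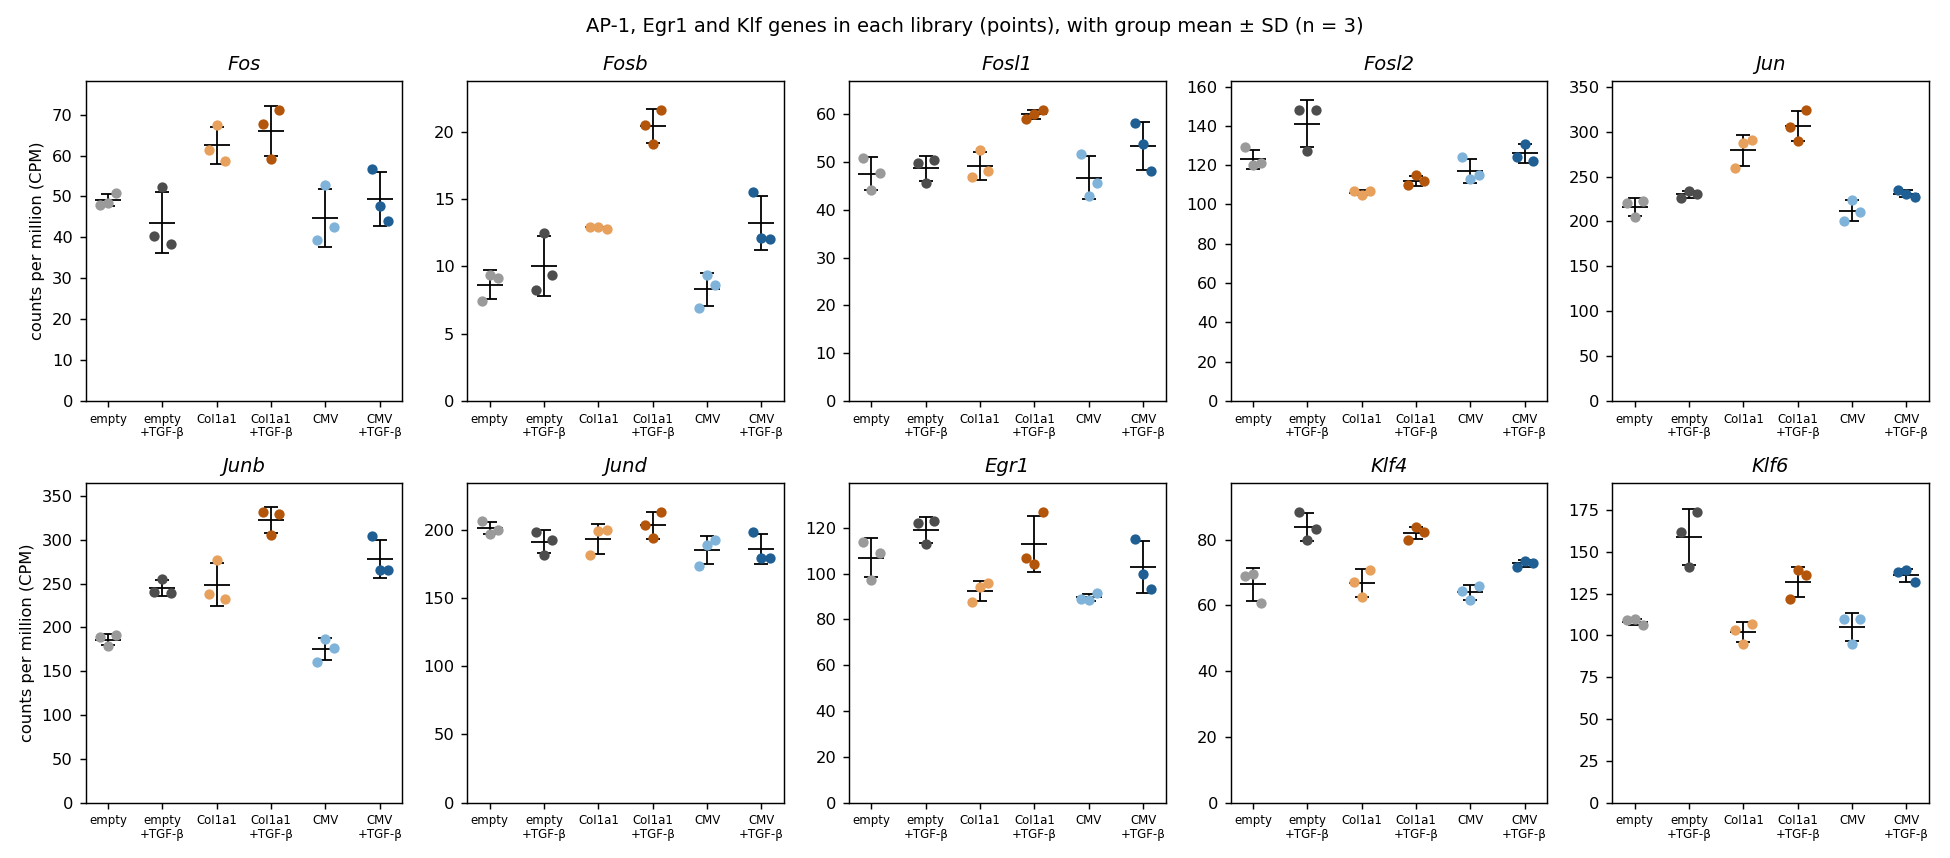
Each panel plots the CPM of 1 gene in all 18 libraries as points, by group, with the group mean and SD as bars (n = 3) and an axis from 0. At the same treatment, the Col1a1-miR-29b libraries stand above the empty vector ones for Jun, Junb, Fosb and Fos and below them for Fosl2, whereas Jund stays between 173 and 213 CPM throughout.

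The lists from here on were also chosen with earlier results of these data known, so their counts beside all genes are descriptions. Of the other immediate-early genes, 35 were listed and 34 tested. Of these 34, 9 rose and 0 fell with TGF-β in empty vector cells, led by Ccn2, a matricellular growth factor (log2 fold change 1.74), Dusp4, a phosphatase of MAP kinases (1.17), Gadd45g (0.98) and Egr3 (0.91). The Egr3 value had a standard error of 0.25 and an edgeR adjusted p of 0.0418. With Col1a1-miR-29b 6 rose and with CMV-miR-29b 9, and 0 fell in both. Over all genes 3.88%, 3% and 3.08% rose with the 3 vectors. Against the empty vector, Col1a1-miR-29b raised 8 of 34 without TGF-β and 15 of 34 with it, and 0 were lower, where 2.57% and 5.31% of all genes were higher. Under TGF-β these were led by the nuclear receptor Nr4a3 (0.80), Zfp36, whose product destabilises short-lived mRNAs (0.72), the kinase Sgk1 (0.68) and Nr4a2 (0.64). Against Col1a1-miR-29b, CMV-miR-29b cells had 8 and 5 of 34 lower and 0 higher, where 0.803% and 0.912% of all genes were lower. The list's median was 0.31 for Col1a1-miR-29b under TGF-β beside 0.02 over all genes.

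The other Klf genes share the zinc finger domain of Klf4 and Klf6. Of 12 tested, Klf13 (0.60), Klf11 (0.33) and Klf9 (0.32) rose with TGF-β in empty vector cells and Klf5 fell by 0.33. With Col1a1-miR-29b 0 rose and only Klf5 fell (-0.28). With CMV-miR-29b Klf11 (0.35) and Klf9 (0.28) rose and 0 fell. Over all genes 3.88%, 3% and 3.08% rose and 2.01%, 1.32% and 1.87% fell with the 3 vectors in this order. Relative to the empty vector, Col1a1-miR-29b cells under TGF-β had 5 of 12 lower and 0 higher, where 7.63% and 5.31% of all genes were, led by Klf13 (-0.93), Klf7 (-0.62), Klf9 (-0.36) and Klf11 (-0.33). Klf13 was also lower without TGF-β (-0.59). Among 28 regulators upstream of these genes, 2 rose with TGF-β with each vector, where 3% to 3.88% of all genes did, the ETS factor Elk3 (0.52 to 0.60) and the kinase Map2k1 (0.36 to 0.41). With Col1a1-miR-29b under TGF-β 8 of the 28 were lower and 1 was higher, beside 7.63% and 5.31% of all genes. The p38 kinase Mapk14 (-0.98), the kinase Rps6ka5 (-0.75), Map2k6, which activates p38 (-0.63), and the Egr corepressor Nab2 (-0.50) were the 4 with the largest change. Their standard errors were 0.28, 0.21, 0.14 and 0.12, with edgeR adjusted p of 0.033, 0.0266, 0.00876 and 0.0115. Without TGF-β 2 were lower, where 3.7% of all genes were, Map3k1 (-0.30) and the JNK gene Mapk8 (-0.20).

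Genes of the Atf, Batf, Jdp and Maf families were listed as AP-1 partners because several of their proteins, though not all, can pair with Fos or Jun. Of 16 tested, 0 passed with TGF-β in empty vector cells, and only Atf5 fell with Col1a1-miR-29b (-0.23) and CMV-miR-29b (-0.25). Maf (0.51 and 0.35) and Mafk (0.31 and 0.32) were higher and Atf7 (-0.27 and -0.34) lower in untreated and treated Col1a1-miR-29b cells, relative to the empty vector. Atf6 (-0.15) was lower without TGF-β. Over all genes 2.57% were higher and 3.7% lower without TGF-β, and 5.31% and 7.63% with it. Of 19 textbook AP-1 targets 6 rose and 1 fell with TGF-β in empty vector cells, among them the urokinase receptor Plaur (0.82), Timp1 (0.73) and Cd44 (0.70). With Col1a1-miR-29b 8 rose and 0 fell, and with CMV-miR-29b 9 rose and 1 fell. The shares of all genes that rose or fell with TGF-β are those given above. In Col1a1-miR-29b cells 1 of the 19 was higher than in empty vector cells without TGF-β, the protease Plau (0.49), where 2.57% of all genes were higher. Under TGF-β 4 of the 19 were higher, where 5.31% of all genes were, among them Plau (0.64), the chemokine Ccl2 (0.37) and Ptgs2 (0.26), and Vegfa was lower (-0.25). For CMV-miR-29b against the empty vector 0 genes of any of these lists passed.

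**Figure D5:**
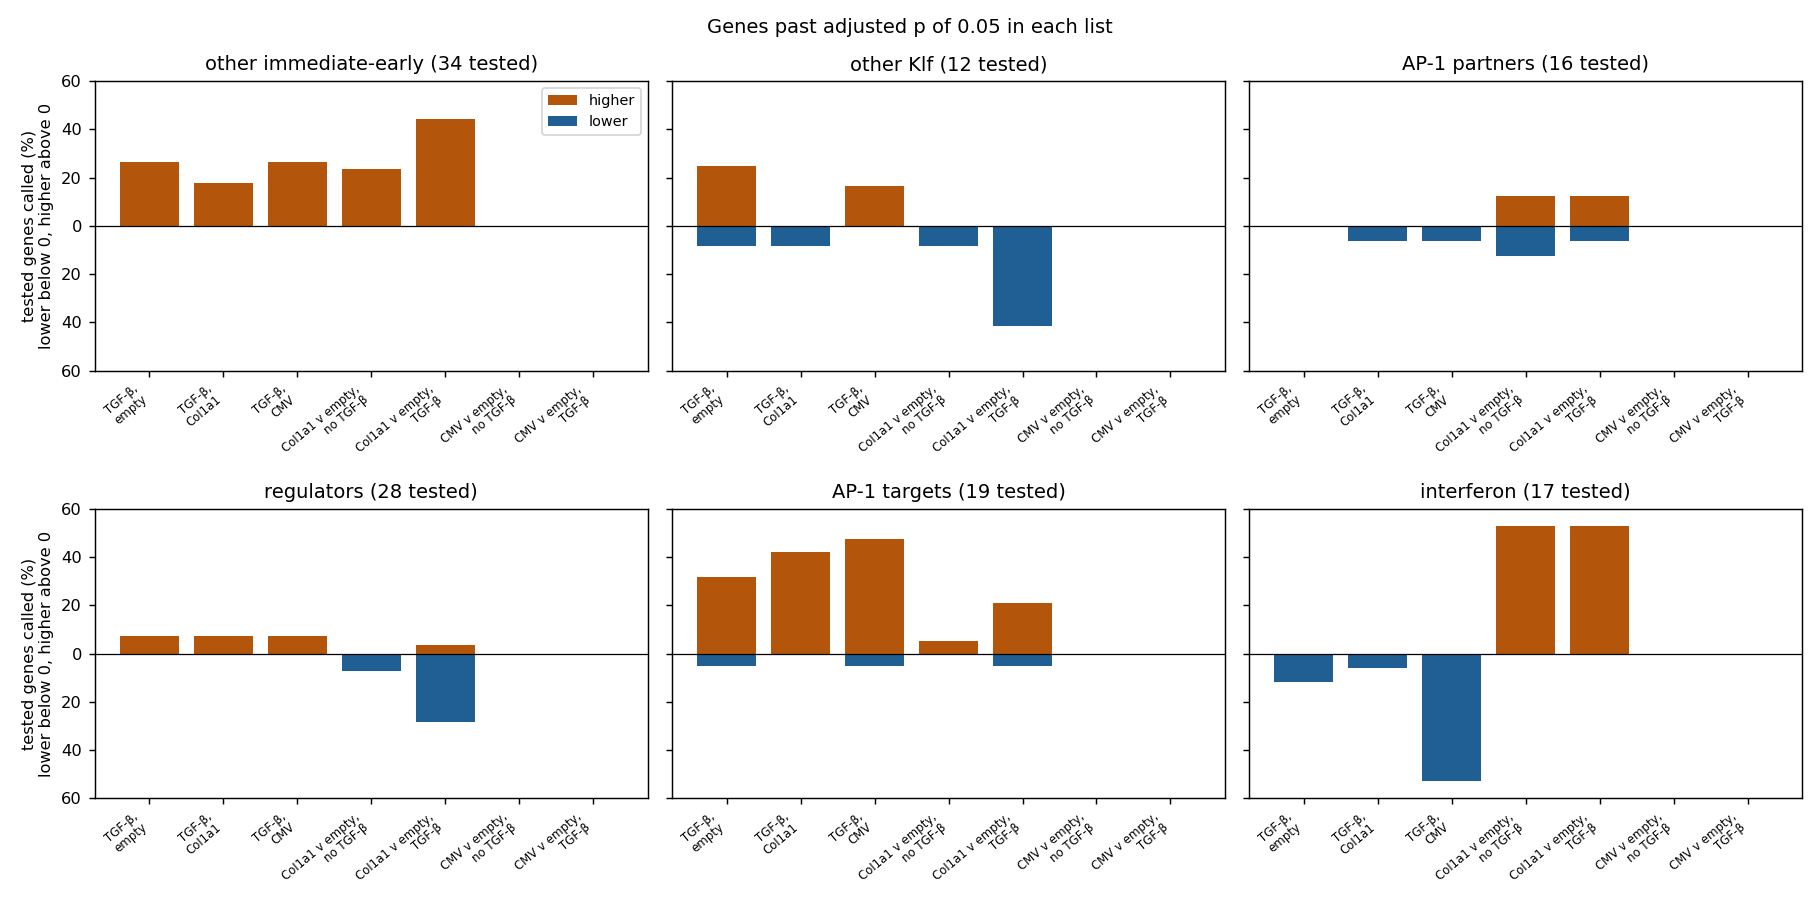
Bars give the percentage of tested genes past an adjusted p of 0.05 in each of 6 gene lists, higher above 0 and lower below it, for 3 TGF-β comparisons and 4 comparisons with the empty vector. Other immediate-early genes and interferon response genes are higher with Col1a1-miR-29b, Klf genes are lower with it under TGF-β, and no bar stands at CMV-miR-29b against empty vector.

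As a description over the 18 libraries, which share groups and treatments, each member was set beside the genes with the most similar log2 CPM pattern by Pearson's r. Fosb was most like Tnfrsf23 (r = 0.98) and Kctd5 (0.97), and Junb most like Hbegf, a ligand of the EGF receptor (0.98), and Plau (0.95). Fos was nearest to Zfp36l1 and Plk3 (0.95 each), and Jun to Foxc1 (0.96) and Ccdc117 (0.95). Fosl2 was nearest to Klf13 and Spred2 (0.98 each), Klf6 to Hmga2 and Nr1d2 (0.97 each), and Klf4 to Btg1 (0.95) and Sqstm1 (0.93). Egr1 was nearest to Kdm6b (0.88) and Slc35f5 (0.84), Fosl1 to Map7d1 (0.82) and Rilp (0.81), and Jund to Tlr6 and Wdr53 (0.78 each). Among the members themselves the most alike pair by Pearson's r was Fosb and Junb (r = 0.90, Spearman's rho 0.83), then Klf4 and Klf6 (0.87 and 0.87) and Fosb and Jun (0.86 and 0.91). By Spearman's rho Fosb and Jun came first, while Fos and Egr1 had 0.02 and -0.01.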

How the data were processed

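RNA sequencing of 18 libraries was analysed from 1 deposited table. According to the study's methods and the submitters' processing notes, the authors trimmed reads with Cutadapt, mapped them with HISAT2 to an Ensembl mouse genome and used StringTie. The notes name build mm9, whereas coordinates of 52506 of 55450 genes are identical to GENCODE for GRCm38. The deposited counts are whole numbers per gene without normalization. Among counts of 1 to 40, 33.8% to 36.7% per library are multiples of 4. The authors also deposited FPKM values, with 0.0001 listed in place of 0. For 2 libraries the column's replicate letter is in no sample label (called unlettered). Their 2 FPKM columns were not used, and their counts were used by group.

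Genes were filtered with filterByExpr, scaled by TMM and tested with edgeR 4.0.16 in R 4.3.3 (quasi-likelihood, 1 mean per group, 18 libraries). P-values were adjusted by Benjamini-Hochberg over 21161 genes, with 0.05 as the threshold. The test was tested on simulated data. Alternatives used DESeq2 1.42.0, limma 3.58.1 on log2(FPKM + 1) and log2(FPKM + 0.1), other scaling and filters, length and GC offsets, counts divided by 4 and each library left out. All members are named, at most 4 called genes of each list by size of change, and the 2 genes most alike to each member with a mean CPM of at least 1. Members and lists were chosen with earlier results of these data known. Proteins were not analysed here. A further check gene of the TGF-β treatment is not reported here.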

Additional observations from a re-analysis of the deposited data

How the results depend on the processing

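Of 2210 values of single members under other settings, 2097 kept their side of the threshold and their direction where called, 99 lost the call, 14 gained it and 0 reversed; 58 of those called in neither changed sign. The number of members called for TGF-β in Col1a1-miR-29b cells (4) was 1 with limma on either FPKM scale or without both unlettered libraries, an alternative added after the data were seen. For Col1a1-miR-29b against empty vector it went from 4 to 2 without TGF-β with limma on either FPKM scale, without the unlettered libraries, or with every gene kept that had at least 1 count somewhere. For CMV-miR-29b against Col1a1-miR-29b it went from 3 to 0 without TGF-β in the fit of only the groups compared. With TGF-β it went from 1 to 3 with DESeq2, and to 2 with genes of at least 10 counts in every library or counts divided by 4. The fits with FPKM, and those without the unlettered libraries, hold 16 of 18 libraries; the cause of the other changes was not tested.

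Leaving out each library in turn gave 3 to 4 members for TGF-β with the empty vector, 3 to 4 with Col1a1-miR-29b and 2 to 3 with CMV-miR-29b. It gave 2 for Col1a1-miR-29b against empty vector without TGF-β (each fit) and 5 to 6 with it, 0 to 1 for CMV-miR-29b against empty vector with TGF-β and 0 without, 2 to 4 for the 2 miR-29b vectors without TGF-β and 1 with it, and 0 for both differences in response.

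Deviations from group means correlated by 0.0155 on average over 36 pairs of the same replicate letter (-0.135 to 0.155). For 70 pairs of different letters the average was -0.00811. Pairing by letter was thus weak on average, but a pairing that affects only some genes could go unseen in such an average. With the letter as a replicate block, in 16 libraries, the members called were 3, 0 and 2 for TGF-β in cells with the empty vector, Col1a1-miR-29b and CMV-miR-29b. It gave 2 and 4 for Col1a1-miR-29b against empty vector without and with TGF-β, 1 and 0 for the 2 miR-29b vectors, and 0 for the other comparisons. The block together with length and GC offsets gave 1 for TGF-β with Col1a1-miR-29b, 2 for Col1a1-miR-29b against empty vector both without and with TGF-β and 0 for the 2 miR-29b vectors with TGF-β.

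With scaling by total counts, 672 of 1265 genes called for TGF-β in empty vector cells were higher, against 820 of 1245 with TMM; for Col1a1-miR-29b against empty vector it was 679 of 1322 against 543 of 1327 without and 1469 of 2792 against 1123 of 2738 with TGF-β, and for the 2 miR-29b vectors without TGF-β 145 of 333 against 212 of 382. Length and GC offsets gave 736 of 1361 for TGF-β in empty vector cells and 90 of 217, against 215 of 408, for the 2 miR-29b vectors with TGF-β.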
